A study of Mus musculus with 9 samples.

Results

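The IGF binding proteins are secreted proteins that hold insulin-like growth factors in blood and tissue and set how much of them reaches the receptor. The members examined were Igfbp2, Igfbp3, Igfbp4, Igfbp5, Igfbp6 and Igfbp7, read from every probe set of the deposited table that the platform annotation assigns to exactly 1 of these symbols. That gave 8 of 12488 probe sets, which cover 5 of the 6 genes, out of 8251 genes that the array reads from a probe set of their own: 3 for Igfbp4, 2 for Igfbp3 and 1 each for Igfbp2, Igfbp6 and Igfbp7. Igfbp5 has no probe set of its own here. The 1 probe set that the annotation assigns to Igfbp5 and Tmem119 together was named for neither gene.

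RNA of both ventricles was measured on 1 array per mouse in female mice aged 3 months. All 9 mice carried a transgene for IGF1R, the receptor of these growth factors. The IGF1R-caPI3K group (3 mice) also carried a constitutively active p110 form of phosphoinositide 3-kinase (PI3K), the IGF1R-dnPI3K group (3 mice) a dominant negative p110 form, and the IGF1R group (3 mice) no further transgene. The sources used here do not name the promoter or cell type that drives each transgene, nor the strain. Hearts without the IGF1R transgene were not analysed here, so no value is relative to a normal heart.

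Circulating and local IGF1 and IGF2 are almost wholly bound to these proteins, which prolong their life and can block or present them to the receptor. Proteases that cut the binding proteins release the growth factor, and PI3K is the kinase through which the activated receptor signals to Akt and the FoxO transcription factors. In the heart the binding proteins are made largely by fibroblasts, endothelial cells and other cells between the cardiomyocytes, so in RNA of whole ventricles fewer cells of a type and less RNA per cell cannot be told apart.

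Igfbp4 is the member on which the results below turn, so its promoter window is printed here. RefSeq places the window at chr11:99040994-99041293 on the plus strand of GRCm38.p6, from 250 bases before the transcription start to 50 bases after it. Capitals mark the only match to TATAAA, the core of a TATA box, at position -28 from the start.

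Igfbp4: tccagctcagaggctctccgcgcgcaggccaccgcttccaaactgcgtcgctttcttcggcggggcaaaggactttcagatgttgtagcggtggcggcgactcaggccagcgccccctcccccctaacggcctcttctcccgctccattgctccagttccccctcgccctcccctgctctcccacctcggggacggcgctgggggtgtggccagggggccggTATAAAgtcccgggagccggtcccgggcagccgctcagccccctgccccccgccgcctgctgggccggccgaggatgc

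TATAAA was found on either strand in 13.6% of 32851 such windows of all genes, and among the members in the windows of Igfbp4 and Igfbp6. The GC box letters GGGCGG, present in 35.7% of all windows, were found in the windows of Igfbp2 and Igfbp7. Neither TTGTTTAC, a core to which FoxO factors bind (1.23% of all windows), nor CAAAACAA, a core of the insulin response sequence (2.51%), was found in any member's window. The window of Igfbp1, the family member best known as an insulin and FoxO target in liver, held CAAAACAA 1 time. These matches describe the letters of the windows and bear on none of the values below.

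Some technical readings moved with the groups. The 3' to 5' ratio of Gapdh signal lay between 0.843 and 0.873 in IGF1R-caPI3K mice, between 0.844 and 0.943 in IGF1R-dnPI3K mice and between 0.747 and 0.818 in IGF1R mice. The same ratio of the added CreX control was 1.80 ± 0.08, 1.81 ± 0.02 and 1.18 ± 0.11 (SD, n = 3 each) in these groups. The Actb ratio overlapped between each PI3K group and the IGF1R mice, at 1.02 ± 0.02 in IGF1R-caPI3K mice, 1.11 ± 0.03 in IGF1R-dnPI3K mice and 1.16 ± 0.11 in IGF1R mice. A PI3K transgene and what sets the Gapdh and CreX ratios apart therefore cannot be told apart in any comparison with the IGF1R mice. IGF1R-dnPI3K replicate 3 had the lowest mean correlation of log2 signal with the other arrays, 0.954, against 0.969 to 0.973 on the rest. Ventricular markers were present: all 9 cardiomyocyte marker genes on the array were bright enough to test. The 9 probe sets of Y-linked genes, which female mice lack, reached 63.9 and give a guide to the background.

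Signals are the intensities as deposited, on a linear scale. Differences are on the log2 scale and come from limma, fitted to the 7898 probe sets bright enough to test, with p-values adjusted by Benjamini-Hochberg over all of them and a threshold of 0.05. Of the 8 member probe sets 7 were tested. The dimmest of Igfbp4 was not, with 19.8, 22.7 and 36.1 in IGF1R-caPI3K mice, 17.5, 17.3 and 20.6 in IGF1R-dnPI3K mice and 22.7, 23.3 and 31 in IGF1R mice, all within the background. A signal depends on its probes, so no probe set's level is set against another's.

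**Figure D1:**
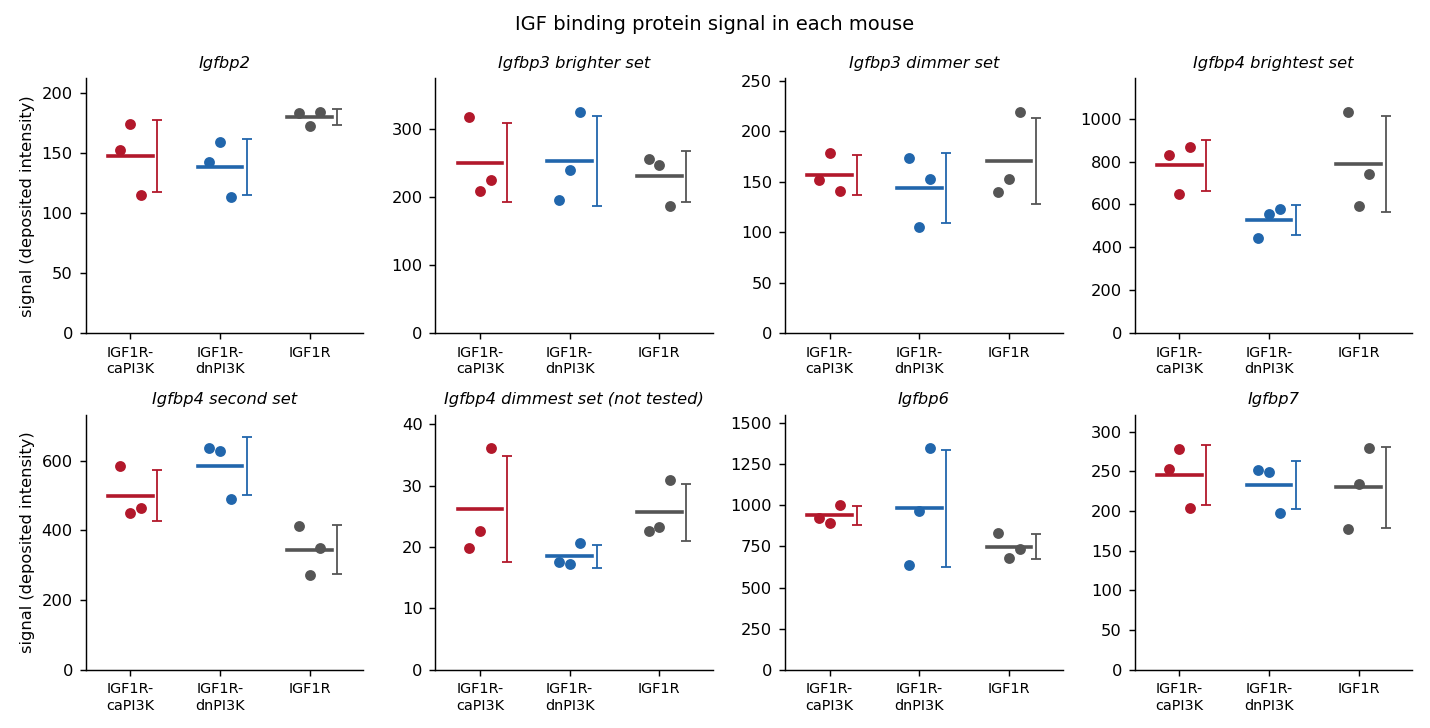
Signal (deposited intensity, linear axis from 0) of the 8 probe sets of IGF binding proteins in each of 9 mice, by group. Points are mice, horizontal bars are group means and the error bars beside them are SDs (n = 3). The IGF1R-dnPI3K points lie below the IGF1R points on the brightest set of Igfbp4 and above them on its second set, while the groups overlap in most other panels.

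Igfbp4, which binds both IGFs and mostly holds them back until the protease Pappa cuts it, was the one member with a difference that passed. On its second brightest probe set the signal was 585, 451 and 465.5 in IGF1R-caPI3K mice, 636, 629 and 489 in IGF1R-dnPI3K mice, and 413, 273 and 349 in IGF1R mice. Every mouse with a PI3K transgene was above every IGF1R mouse. The IGF1R-dnPI3K mice averaged 585 ± 82.8 and the IGF1R mice 345 ± 69.9 (SD, n = 3 each), a difference of 0.77 ± 0.19 in log2 signal (SE, adjusted p = 0.0263 in limma), or 1.71-fold with a 95% interval of 1.29 to 2.26. The IGF1R-caPI3K mice averaged 500.5 ± 73.7 (SD, n = 3), and their log2 difference from IGF1R mice, 0.55 ± 0.19, did not pass (adjusted p = 0.164). IGF1R-caPI3K minus IGF1R-dnPI3K was -0.22 ± 0.19 (adjusted p = 0.584). The order of the means was thus IGF1R-dnPI3K, IGF1R-caPI3K, IGF1R, and neither pair of neighbours in it passed the test.

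The brightest probe set of Igfbp4 gave the opposite direction in the same mice. Its signal was 833, 647 and 871 in IGF1R-caPI3K mice, 446, 556 and 578 in IGF1R-dnPI3K mice, and 1033, 592 and 742 in IGF1R mice. All 3 IGF1R-dnPI3K mice lay below all 6 others. The IGF1R-dnPI3K mice averaged 526.5 ± 70.9 and the IGF1R mice 789 ± 225 (SD, n = 3 each), a log2 difference of -0.55 ± 0.21 that did not pass (adjusted p = 0.0918). The IGF1R-caPI3K mice, at 784 ± 120, differed from IGF1R mice by 0.02 ± 0.21 (adjusted p = 0.973) and from IGF1R-dnPI3K mice by 0.57 ± 0.21 (adjusted p = 0.224). Because these sets point in different directions, the data give no direction for Igfbp4 as a gene.

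The disagreement can be read within each array, where loading and scaling cancel. The ratio of the brightest to the second set was 1.42, 1.44 and 1.87 in IGF1R-caPI3K mice, 0.701, 0.884 and 1.18 in IGF1R-dnPI3K mice, and 2.50, 2.17 and 2.13 in IGF1R mice. No value of one group fell inside the range of another. Only the order of the groups can be read from these ratios, since the size of each depends on the probes. This comparison was chosen after the values were seen and was not tested. The sources used here do not say which transcripts of Igfbp4 each set reads.

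The call on the second set rested on single arrays. Without IGF1R replicate 2 the log2 difference was 0.61 (adjusted p = 0.0807), without IGF1R replicate 3 it was 0.79 (adjusted p = 0.0769), and without IGF1R-dnPI3K replicate 2 it was 0.71 (adjusted p = 0.0601). The mouse numbers in the titles fall into 3 runs. With the run as a block, a fit in which replicate 1 is the only IGF1R-dnPI3K mouse that informs the difference, it was 0.77 (adjusted p = 0.383), with only the arrays of both groups 0.77 (adjusted p = 0.0647) and with no filter on dim probe sets 0.77 (adjusted p = 0.075). It passed in 15 of 21 alternatives and was positive in all 21, from 0.61 to 0.94. The brightest set was negative in all 21, from -0.81 to -0.34, and passed in 0, with a lowest adjusted p of 0.064. Alternatives that change only the filter, the variance model or the IGF1R-caPI3K arrays leave both estimates as they were. The signs under those alternatives were therefore fixed in advance.

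**Figure D2:**
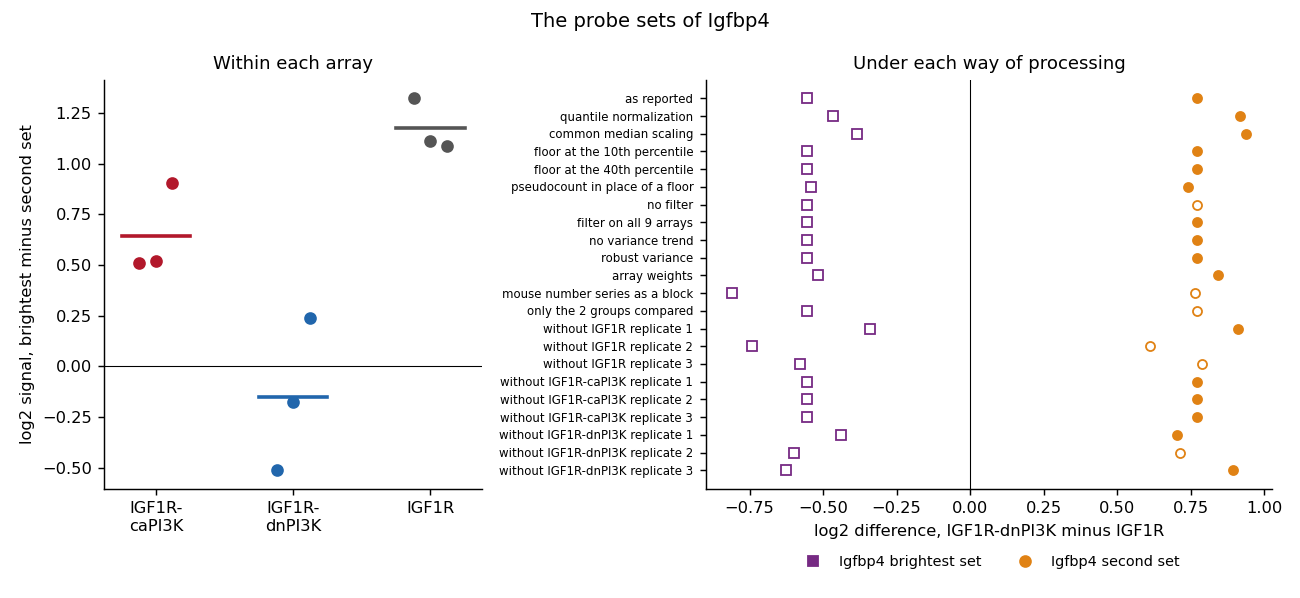
Left, log2 signal of the brightest minus the second probe set of Igfbp4 on each array, with group means as bars: the values run from 0.51 to 0.90 in IGF1R-caPI3K mice, from -0.51 to 0.24 in IGF1R-dnPI3K mice and from 1.09 to 1.32 in IGF1R mice. Right, log2 difference of IGF1R-dnPI3K minus IGF1R for both sets as reported and under 21 alternatives, where filled symbols passed an adjusted p of 0.05. The brightest set stays below 0 and the second above 0 throughout. Alternatives that change only the filter, the variance model or the IGF1R-caPI3K arrays cannot move the points.

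Markers of several cell types also differed between these groups. Of 17 tested probe sets of 10 fibroblast genes, 7 were lower and 2 higher in IGF1R-dnPI3K mice relative to IGF1R mice, with a median log2 difference of -0.68 against -0.09 over all probe sets tested. The 7 lower sets belonged to the matrix genes Col1a1, Col1a2, Col3a1, Lum and Postn, and the 2 higher ones to Fbln1. No set of Dcn, Ddr2, Tcf21 or Pdgfra passed. Dcn was at 0.09, Ddr2 at 0.23, Tcf21 at -0.20 and the brighter set of Pdgfra at -0.88. The other set of Col1a2, at 0.14, and that of Col1a1, at -1.23, did not pass either. The summed signal of the 17 sets ran from 27857 to 33385 in IGF1R-dnPI3K mice and from 36888 to 40435 in IGF1R mice. In IGF1R-caPI3K mice it ran from 40367 to 44595. Endothelial markers, read from 14 probe sets, moved both ways. In IGF1R-dnPI3K mice Kdr, at -1.16 in log2, and Pecam1, at -0.73, passed as lower, while Vwf, at 0.63, passed as higher. Endothelial sums overlapped, at 15752 to 18512 against 17012.5 to 19014 in IGF1R mice. The IGF1R-caPI3K sums, 15393 to 16923, lay below those of all IGF1R mice, although 0 of the 14 passed there. Macrophage markers were lower on 3 and higher on 0 of 11 probe sets in IGF1R-dnPI3K mice. Their sums overlapped, at 5898 to 8277 against 8020 to 9191 in IGF1R mice. C1qc of this list ran the other way, at 0.38, and did not pass (limma adjusted p = 0.0959). Skeletal muscle markers were lower on 3 and higher on 1 of 7 probe sets, with sums of 14201 to 22415 in IGF1R-dnPI3K mice against 30411 to 32691 in IGF1R mice. The lower ones were Acta1, Casq1 and Myl1, and the higher one was Atp2a1. Only 6 of the 10 listed genes on the array were bright enough to test, and whether these hearts held skeletal muscle was not tested. Cardiomyocyte markers were higher on 3 and lower on 1 of 11 probe sets, with sums of 197260 to 253088 in IGF1R-dnPI3K mice against 180950 to 191540 in IGF1R mice. Smooth muscle and pericyte markers were higher on 1 of 9, with sums of 9440 to 10847 in IGF1R-dnPI3K mice against 7782 to 9345 in IGF1R mice. That 1 was Abcc9, the brightest of the list, with means of 4612 in IGF1R-dnPI3K mice and 3500 in IGF1R mice. Of all probe sets tested, 13.5% passed in this comparison (5.70% higher, 7.80% lower). The part of these markers in the Igfbp4 values was not tested.

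Igfbp6, which prefers IGF2 over IGF1, had signals of 924, 891 and 1005 in IGF1R-caPI3K mice, 635, 967 and 1347 in IGF1R-dnPI3K mice, and 829, 682 and 735 in IGF1R mice. The IGF1R-caPI3K mice lay above the IGF1R mice without overlap, while the IGF1R-dnPI3K mice spanned both other groups. Neither log2 difference from IGF1R mice passed, at 0.33 ± 0.22 for IGF1R-caPI3K (adjusted p = 0.457) and 0.33 ± 0.22 for IGF1R-dnPI3K (adjusted p = 0.333). The SD of its log2 signal was 0.54 in IGF1R-dnPI3K mice, against a median of 0.26 over all probe sets in that group, and 0.09 and 0.14 in IGF1R-caPI3K and IGF1R mice. Without IGF1R-dnPI3K replicate 1, the lowest mouse, the log2 difference of IGF1R-dnPI3K from IGF1R was 0.61 and passed (adjusted p = 0.0224). Without IGF1R-dnPI3K replicate 3, the highest mouse, it was 0.07, so its size rested on single mice. In the block fit, which rests on replicate 1 of IGF1R-dnPI3K, the difference was -0.21.

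Igfbp2, which in blood rises with fasting and falls with growth hormone, had signals of 153, 175 and 115 in IGF1R-caPI3K mice, 143, 159 and 113 in IGF1R-dnPI3K mice, and 183, 172.5 and 185 in IGF1R mice. All 3 IGF1R-dnPI3K mice lay below the IGF1R mice, and 2 of 3 IGF1R-caPI3K mice did. The IGF1R-dnPI3K mice averaged 138 ± 23.2 and the IGF1R mice 180 ± 6.65 (SD, n = 3 each), a log2 difference of -0.39 ± 0.23 that did not pass (adjusted p = 0.265). The IGF1R-caPI3K mice averaged 148 ± 30.2 (SD, n = 3), with a log2 difference from IGF1R of -0.31 ± 0.23 (adjusted p = 0.505). Both differences were negative in all 21 alternatives and passed in 0, though alternatives that change only the filter or the variance model cannot change a sign.

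Igfbp3, the main carrier of IGFs in serum, was read from a brighter and a dimmer probe set, and neither passed. On the brighter set the signals were 317, 208 and 225 in IGF1R-caPI3K mice, 195, 239 and 325 in IGF1R-dnPI3K mice, and 255, 247 and 187 in IGF1R mice. On the dimmer set they were 151, 179 and 140 in IGF1R-caPI3K mice, 173.5, 105.5 and 152 in IGF1R-dnPI3K mice, and 139, 153 and 219 in IGF1R mice. The groups overlapped on both sets. The log2 difference of IGF1R-dnPI3K from IGF1R was 0.12 ± 0.24 on the brighter set and -0.25 ± 0.26 on the dimmer set (adjusted p = 0.758 and 0.545). For IGF1R-caPI3K it was 0.11 ± 0.24 and -0.10 ± 0.26 (adjusted p = 0.835 and 0.869). The Pearson correlation of the log2 signals of these sets over the 9 arrays was -0.45, so they did not rank the mice alike.

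Igfbp7, which binds IGFs weakly and is abundant in vessel walls, had signals of 254, 279 and 204 in IGF1R-caPI3K mice, 252, 249 and 198 in IGF1R-dnPI3K mice, and 177, 234 and 279 in IGF1R mice. The group means, 246 ± 37.9, 233 ± 30.6 and 230.0 ± 51.3 (SD, n = 3 each), lay closer together than the mice within a group. The log2 difference from IGF1R was 0.11 ± 0.21 for IGF1R-caPI3K, with a 95% interval of 0.778 to 1.49 in fold, and 0.03 ± 0.21 for IGF1R-dnPI3K, with an interval of 0.74 to 1.42. A change of Igfbp7 within these bounds could not be seen with 3 mice a group.

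Read together, the members' counts stayed near those of the whole array. Between IGF1R-caPI3K and IGF1R mice, 0 of 7 member probe sets passed in limma and 1 had an unadjusted p under 0.05, where 0.215% of all probe sets tested passed (0.152% higher, 0.0633% lower) and 18.4% had such a p. Between IGF1R-dnPI3K and IGF1R mice 1 of 7 passed, higher in IGF1R-dnPI3K, and 2 had an unadjusted p under 0.05, where 13.5% of all passed (5.70% higher, 7.80% lower) and 32.2% had such a p. Between IGF1R-caPI3K and IGF1R-dnPI3K mice 0 of 7 passed and 1 had an unadjusted p under 0.05, where 1.24% of all passed (0.734% higher, 0.506% lower) and 15.4% had such a p. In the F test over the 3 groups 0 of 7 passed and 2 had an unadjusted p under 0.05, where 7.24% of all passed and 29.6% had such a p. A single call among 7 is close to the share of all probe sets called in that comparison, so it is no result about the family.

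The median size of the log2 difference, without its sign, was 0.11 over the 7 probe sets against 0.22 over all probe sets tested for IGF1R-caPI3K minus IGF1R. It was 0.33 against 0.29 for IGF1R-dnPI3K minus IGF1R, and 0.09 against 0.20 for IGF1R-caPI3K minus IGF1R-dnPI3K. With its sign, the median log2 difference of the 7 probe sets was 0.11 for IGF1R-caPI3K minus IGF1R, against -0.04 over all probe sets tested. It was 0.03 for IGF1R-dnPI3K minus IGF1R, against -0.09, and 0.07 for IGF1R-caPI3K minus IGF1R-dnPI3K, against 0.05. The groups did not overlap on 2 of 7 probe sets for IGF1R-caPI3K against IGF1R (Igfbp4 second set and Igfbp6), where 32.9% of all did not. They did not overlap on 3 of 7 for IGF1R-dnPI3K against IGF1R (Igfbp2 and both tested sets of Igfbp4), where 34.4% did not, and on 1 of 7 for IGF1R-caPI3K against IGF1R-dnPI3K (the brightest set of Igfbp4), where 19.5% did not. The first and second of these comparisons share the IGF1R mice.

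**Figure D3:**
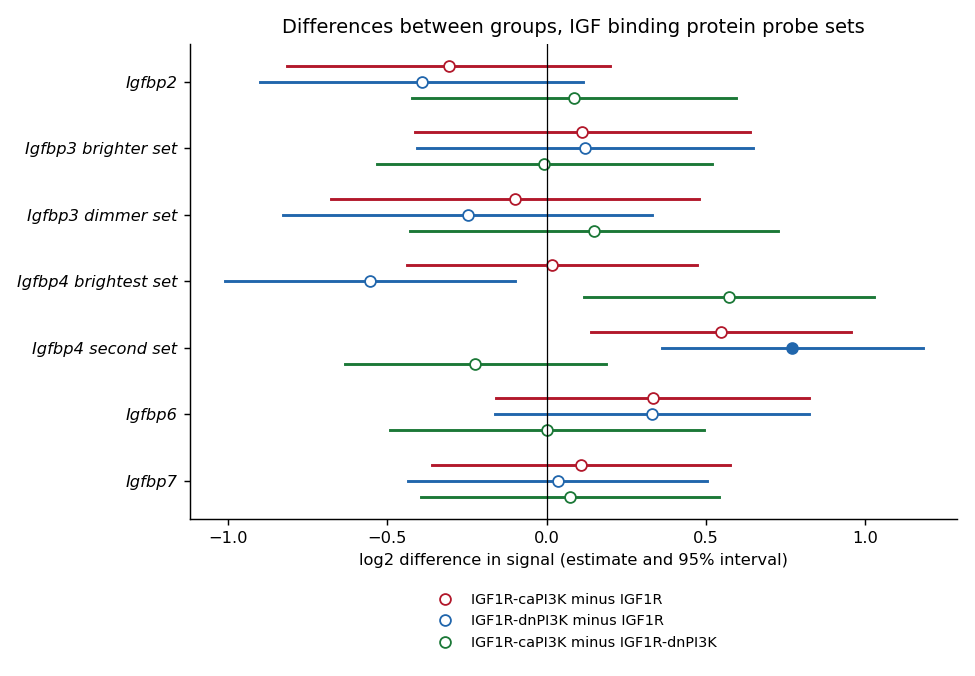
Log2 difference in signal (points) with 95% intervals (lines) for the 7 tested probe sets of IGF binding proteins in 3 comparisons, each as the group named first minus the group named second. Filled points passed an adjusted p of 0.05: only the second set of Igfbp4 did, at 0.77 for IGF1R-dnPI3K minus IGF1R.

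The rest of the IGF axis was read from lists of ligands, receptors, proteases and partners. The ligands did not pass in the 3 comparisons. Igf1 averaged 1263 ± 132 in IGF1R-caPI3K mice, 1214 ± 197 in IGF1R-dnPI3K mice and 1143 ± 289 in IGF1R mice, and Igf2 averaged 1549 ± 130, 1832 ± 378 and 1407 ± 62.5 in these groups (SD, n = 3 each, the brighter set of each gene). Igf1r averaged 1772 ± 178 in IGF1R-dnPI3K mice and 903 ± 72.3 in IGF1R mice, a log2 difference of 0.97 ± 0.14 (adjusted p = 0.00827). The IGF1R-caPI3K mice averaged 1138 ± 182 for this gene. Their log2 difference was 0.32 ± 0.14 from IGF1R mice (adjusted p = 0.259) and -0.65 ± 0.14 from IGF1R-dnPI3K mice (adjusted p = 0.0582), and neither passed. Whether its probe set reads the transgene was not tested. Igf2r, which takes up IGF2 for breakdown, averaged 1501 ± 169 in IGF1R-caPI3K mice, 1607 ± 214 in IGF1R-dnPI3K mice and 1954 ± 213 in IGF1R mice and did not pass. Both sets of Igfbp1 were too dim to test, with means of 22.9 to 57.6 over the groups. The sets of Igfals, the serum partner of Igfbp3, were also too dim, at 17.4 to 65.2.

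Among ligands, receptors and adaptors, 2 of 10 tested probe sets passed as higher in IGF1R-dnPI3K mice relative to IGF1R mice and 0 as lower. Of all probe sets 5.70% passed as higher in this comparison and 7.80% as lower. The second was Irs2, a docking protein of the receptor, at 162.8, 142.6 and 181 in IGF1R-dnPI3K mice and 100.2, 30.9 and 55.2 in IGF1R mice (adjusted p = 0.0289). Of the IGF1R mice 2 lay within the background, so the size of this difference is uncertain: it ran from 0.55 to 1.93 in log2 under 20 alternatives and passed in 14 of them. In IGF1R-caPI3K against IGF1R mice 0 of the 10 passed in limma and 3 had an unadjusted p under 0.05.

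Of 10 tested probe sets of proteases that can cut IGF binding proteins, 1 passed as higher and 2 as lower in IGF1R-dnPI3K mice relative to IGF1R mice, where 5.70% of all probe sets passed as higher and 7.80% as lower. Ctsl, a lysosomal and secreted cathepsin, was higher, with 2838 ± 418 in IGF1R-dnPI3K mice and 1534 ± 266 in IGF1R mice (SD, n = 3 each), a log2 difference of 0.89 ± 0.15 (adjusted p = 0.0113) that passed in 20 of 21 alternatives. Adam9, a membrane metalloprotease, was lower, with 343 ± 114 in IGF1R-dnPI3K mice and 688 ± 32.6 in IGF1R mice, a difference of -1.07 ± 0.23 (adjusted p = 0.0191) that passed in 15 of 21. The other lower one was 1 of 3 tested sets of Ctsb, at -0.90 ± 0.24 (adjusted p = 0.0356, passing in 10 of 21), while its brightest set was at 0.04 and the third at -0.11, so no direction is given for Ctsb. Pappa, the protease best known for cutting Igfbp4, was not analysed here.

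Of 7 tested probe sets of protease inhibitors, 2 were lower in IGF1R-dnPI3K mice, both of Cst3, which encodes the cathepsin inhibitor cystatin C, where 7.80% of all probe sets were lower. They were at -0.34 ± 0.08 (brighter set, 9665 ± 330 in IGF1R-dnPI3K mice and 12197 ± 291 in IGF1R mice, adjusted p = 0.0296) and -0.72 ± 0.15 (dimmer set, adjusted p = 0.0187), and passed in 10 and 16 of 21 alternatives. Among 3 tested probe sets of related secreted proteins, Ccn1, a matricellular protein with an IGF binding protein-like domain, was lower by -0.63 ± 0.18 (adjusted p = 0.043), which held in 7 of 21 alternatives. Of 13 tested probe sets of proteins that IGF binding proteins attach to, 2 were lower and 0 higher, where 7.80% of all probe sets were lower and 5.70% higher. Itga5, the integrin subunit of the fibronectin receptor, had 85.1 ± 19.95 in IGF1R-dnPI3K mice and 341 ± 98.7 in IGF1R mice, a difference of -1.98 ± 0.27 (adjusted p = 0.00733) that passed in 19 of 20 alternatives. Its IGF1R-dnPI3K signals, 85.3, 105 and 65.1, lay close above the background guide of 63.9, so the size of this difference is uncertain. The other was 1 of 2 sets of Itgb1, at -0.46 ± 0.14 (adjusted p = 0.0463), with the brighter set at -0.15, and it passed in 8 of 21. None of these 4 lists had a probe set that passed for IGF1R-caPI3K against IGF1R in limma, and 1, 2, 0 and 1 had an unadjusted p under 0.05, as did 18.4% of all probe sets. For IGF1R-caPI3K against IGF1R-dnPI3K the lists held 1 that passed, Itga5, at 1.51 ± 0.27 (adjusted p = 0.0276), which passed in 13 of 20 alternatives.

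**Figure D4:**
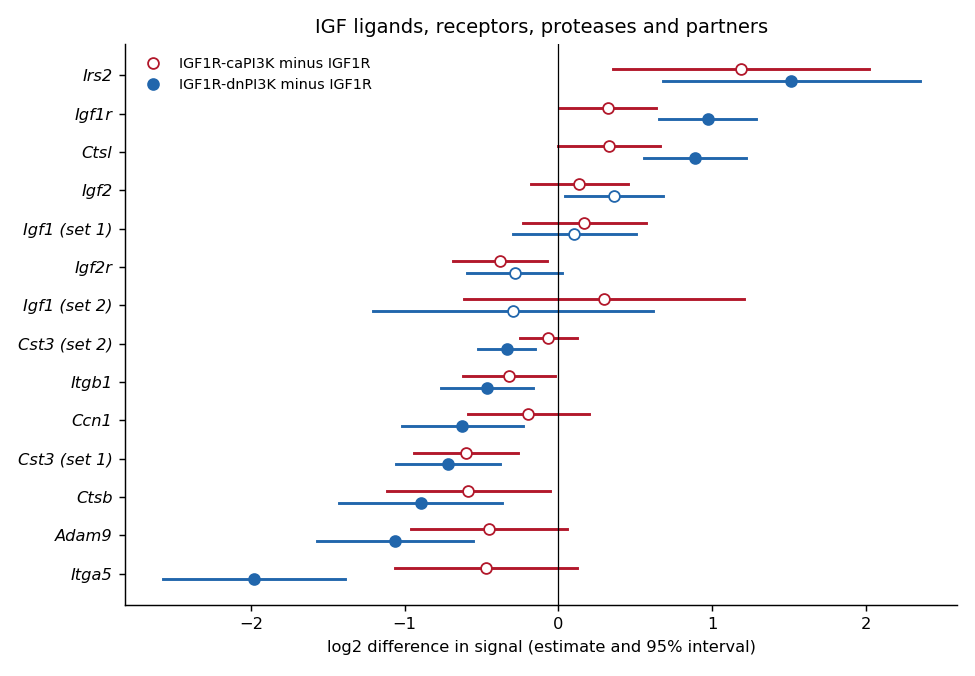
Log2 difference in signal (points) with 95% intervals (lines) for probe sets of the IGF axis that passed in IGF1R-dnPI3K against IGF1R mice, together with Igf1, Igf2, Igf1r and Igf2r, for both PI3K groups minus IGF1R. Filled points passed an adjusted p of 0.05, among them Ctsl at 0.89 and Itga5 at -1.98. The size drawn for Irs2 is uncertain, since its IGF1R mean lies within the background. That for Itga5 is uncertain too, since its IGF1R-dnPI3K signals lie close above the background. Other sets of Ctsb and Itgb1, not drawn, did not pass.

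The members did not follow one pattern over the mice. Of the genes outside the family, those whose log2 signal was most like each member over the 9 arrays are given with Pearson's r, and in brackets with r of the deviations from the group means. These describe 9 arrays that share their scaling, and the best of so many probe sets would be high in any data. For Igfbp4 (brightest set) they were Ptprn at 0.89 (0.82), Cyb5r1 at 0.89 (0.74) and Kpna6 at 0.88 (0.78). For Igfbp6 they were Msrb1 at 0.97 (0.98), Psmd1 at 0.97 (0.96) and Rab4a at 0.95 (0.94). For Igfbp2 they were Psip1 at 0.97 (0.96), Ccdc115 at 0.96 (0.95) and Dazl at 0.95 (0.95). For Igfbp3 (brighter set) they were Stim1 at 0.88 (0.90), 1110008P14Rik at 0.85 (0.88) and Wwp2 at 0.85 (0.86). For Igfbp7 they were Slc8a1, the sodium-calcium exchanger, at 0.89 (0.89), Mtmr1 at 0.89 (0.92) and Traf4 at 0.88 (0.92). Between members r ran from -0.62, for Igfbp2 with Igfbp6, to 0.66, for the brighter set of Igfbp3 with Igfbp6.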

How the data were processed

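The deposited values are linear intensities, 1 for each probe set on each array. The deposited values share a 2% trimmed mean of 500.3 to 500.4, so the arrays had been scaled; the sources used here do not name the authors' algorithm. No 2 arrays were alike: pairs shared 11 to 37 identical values. Genes came from the platform annotation: 10833 probe sets had 1 symbol, 396 several and 1193 none, besides 66 controls. Its genome build is not given, and printed coordinates belong to RefSeq's promoter table.

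Groups came from the sample titles and replicates were numbered in deposit order. Whether the mice were littermates is not given, so p-values measure the spread between these mice. Values were raised to 32.4 (the 20th percentile of positive values) and taken to log2, and a probe set was tested if it exceeded its array's 40th percentile on 3 or more arrays. One limma 3.58.1 model (R 4.3.3) on all 9 arrays, with variances that follow the mean signal, gave 3 contrasts and an F test, which share 1 estimate of spread. It was tested on simulated data. Having 3 arrays a group limits the precision. The alternatives were other scalings, floors, filters, variance models and array weights, a block for the runs of mouse numbers, only 2 groups, and each array left out. All probe sets of the members are shown. From the lists, genes that passed are named, with Igf1, Igf2, Igf1r, Igf2r and Igfbp1; for likeness, the 3 genes highest in Pearson's r. The members, lists and tests were chosen with earlier results of these data known.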

Additional observations from a re-analysis of the deposited data

Results flagged for a closer look

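The probe set that the annotation assigns to Tmem119 and Igfbp5 together belongs to no comparison above, and its signal differed between the groups. It was 3758, 4082 and 4248 in IGF1R-caPI3K mice (mean 4029), 1112, 1238 and 1587 in IGF1R-dnPI3K mice (mean 1312), and 2323, 3299 and 2386 in IGF1R mice (mean 2669). The 3 groups did not overlap. The log2 difference was 1.63 ± 0.16 for IGF1R-caPI3K minus IGF1R-dnPI3K (SE, limma adjusted p = 0.00122), -1.02 ± 0.16 for IGF1R-dnPI3K minus IGF1R (adjusted p = 0.00915) and 0.61 ± 0.16 for IGF1R-caPI3K minus IGF1R (adjusted p = 0.104). The first passed in 21 of 21 alternatives, the second in 20 and the third in 3. Which of the genes it reads was not tested, so it supports nothing about Igfbp5. The fibroblast, macrophage and skeletal muscle marker sums ran in the same order over the 3 groups. Of these only the skeletal muscle sums did so without overlap, with 39114 to 40553 in IGF1R-caPI3K mice. The part of these markers in the signal of this probe set was not tested.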

How the results depend on the processing

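No paired analysis was possible because the titles give no replicate number that groups share; the runs of mouse numbers were fitted as a block instead, and IGF1R-caPI3K and IGF1R each have 1 mouse in one run and 2 in another. The count of member probe sets that passed between IGF1R-dnPI3K and IGF1R mice, 1 of 7, was 0 with no filter, 0 with the runs of mouse numbers as a block and 0 with only the arrays of both groups, and ran from 0 to 2 with 1 array left out. In the F test the count of 0 became 1 after quantile normalization, 1 with common median scaling, 1 with a filter on all 9 arrays and 1 with array weights, and ran from 0 to 1 with 1 array left out. The counts of 0 in the other comparisons stayed at 0 under every alternative run. Of 441 member values under the alternatives, some of which cannot change an estimate, 34 changed sign. None of these belonged to a difference that passed as reported, and none passed with its changed sign. Igfbp6 for IGF1R-dnPI3K minus IGF1R passed in 1 alternative, at 0.61, and changed sign in another, the block fit, at -0.21. Common median scaling moved the median log2 difference of all probe sets for IGF1R-dnPI3K minus IGF1R from -0.09 to 0.08, and the split of its calls from 450 higher and 616 lower to 832 and 333. That scaling moves all log2 differences of a comparison and their median alike, so it could not change a member's place relative to the median. Relative to the median, the second set of Igfbp4 lay at 0.86 as reported and at 0.92 after quantile normalization. The brightest set lay at -0.46 in both. The calls over all probe sets moved widely. For IGF1R-caPI3K against IGF1R, 17 passed (12 higher, 5 lower), against 78 (45 and 33) after quantile normalization, 3 with common median scaling, 67 with the floor at the 40th percentile, 42 with a filter on all 9 arrays, 7 with no variance trend, 777 with array weights, 699 with only the arrays of both groups, 1 with the block, 0 with no filter and 0 to 550 with 1 array left out. For IGF1R-dnPI3K against IGF1R, 1066 passed, against 387 with no filter, 657 with no variance trend, 5 with the block, 132 with only the arrays of both groups and 73 to 1861 with 1 array left out. For IGF1R-caPI3K against IGF1R-dnPI3K, 98 passed, against 36, 45, 8, 13 and 10 to 539 under the same settings and 348 with array weights. The causes were not tested. With 3 arrays a group, the intervals of the members allow changes of up to about the sizes printed beside them.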
